A study of Mus musculus with 4 samples.

Results

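The nuclear genes of oxidative phosphorylation were followed through the ribosome profiling (Ribo-seq) of *Eef1g*-cKO and control spermatocytes. They were taken as every gene of the deposited table whose symbol begins with Nduf, Cox and a digit, Uqcr or Atp5, or is *Sdha*, *Sdhb*, *Sdhc* or *Sdhd*. This rule found 92 of the 11598 genes, 42 assigned here to complex I, 4 to complex II, 8 to complex III, 24 to complex IV and 14 to complex V. The symbols fit the label, with 2 exceptions that the assignment took into account. *Ndufa4* carries a complex I name but is a subunit of complex IV and was counted there, and *Atp5sl* carries a complex V name but was counted with the complex I assembly factors. *Atp5g2*, *Cox4i2*, *Cox6a2*, *Cox7a2l* and *Ndufa4l2* were not analysed here, and neither were the subunits encoded by mitochondrial DNA.

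Leptotene and zygotene spermatocytes, the cells of early meiotic prophase, were isolated by FACS from testes at postnatal day 12 and their ribosome-protected fragments (RPFs) were sequenced. The 2 *Eef1g*-cKO libraries came from mice on a C57BL/6J background in which *Stra8*-GFPCre, active in germ cells from spermatogonia onward, deleted part of the floxed gene *Eef1g*, a subunit of translation elongation factor eEF1. The 2 control libraries came from littermates, which the labels call wild type. The labels name 2 biological replicates of each genotype but not how many animals each holds, so the p-values measure the spread between these libraries.

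The respiratory chain passes electrons from NADH through complex I, or from succinate through complex II, to ubiquinone, complex III, cytochrome c and complex IV, which reduces oxygen. Complexes I, III and IV pump protons, and ATP synthase, complex V, uses the gradient to make ATP. In the testis several complex IV subunits have isoforms made in germ cells, and developing spermatocytes increasingly rely on respiration.

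The table counted 2479504 and 1384282 reads on genes in control replicates 1 and 2, against 223906 and 407979 in *Eef1g*-cKO replicates 1 and 2. The median gene of the rule had 194 and 143 reads in control but 17.5 and 29.5 in *Eef1g*-cKO, and 22 and 10 of the 92 genes had at most 3 reads there. *Eef1g* itself, the gene targeted, was hit by 107 and 58 control reads but by 0 and 4 from *Eef1g*-cKO. Marker RPFs differed between the genotypes. The 6 leptotene/zygotene markers summed to 1628 and 1304 FPKM in control against 4036 and 3631 in *Eef1g*-cKO, with both *Eef1g*-cKO libraries above both controls for 6 of 6 genes. The 6 spermatogonial markers summed to 1374 and 1605 FPKM in control against 227 and 210.0 in *Eef1g*-cKO, lower without overlap for 5 of 6. The 6 Sertoli cell markers found summed to 101 and 39.5 against 42.4 and 20.4 FPKM, and the 5 peritubular markers to 73.6 and 69.6 against 35.0 and 29.8 FPKM. The 3 pachytene markers found summed to 416 and 311 FPKM in control against 1483 and 1381 in *Eef1g*-cKO, nearly all of it *Hist1h1t*, while *Piwil1* lay below both controls. The Sertoli cell sums overlapped between the genotypes. The other sums moved with the genotype in the same libraries as every result that follows. The part of the marker differences in those results was not tested. A change in the cells captured and a change in RPFs per cell cannot be told apart.

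Many of these genes have very short coding sequences, and many are matched in part by sequence elsewhere in the genome, so the sequences that ribosomes crossed are shown first. The median coding sequence, without the stop codon, was 450 bases in the 92 genes, against 1425 bases in the 10122 of 10475 tested genes with one. A stretch of 28 bases, within the size range of the fragments, was moved along each coding sequence and looked for in the rest of the GRCm38 genome. For 12 genes at least 50% of the stretches had an exact match outside the gene, and for 37 none had. The median share of matched stretches was 24.6% in the 10 genes later called lower, 7.10% in the 3 called higher and 0.947% in the 79 not called. Of the 12 genes 1 was called higher and 2 lower, and of the 37 none higher and 3 lower. Over all tested genes 2.87% were called higher and 4.97% lower, and matches were looked for only in the 92 genes. The groups also differed in length, with median coding sequences of 267 bases in those called lower, 384 in those called higher and 483 in those not called. The part of matches or length in the calls was not tested. *Uqcr11* and *Cox7c* gave the largest decreases and *Ndufa1* one of the increases. Their coding sequences are printed from GENCODE M21 with the bases that lie in a stretch matched elsewhere in capitals. *Uqcr11* lies at chr10:80402997-80406821 on the minus strand, *Cox7c* at chr13:86044798-86046795 on the minus strand and *Ndufa1* at chrX:37187588-37191238 on the minus strand, by RefSeq on GRCm38.p6.
Uqcr11: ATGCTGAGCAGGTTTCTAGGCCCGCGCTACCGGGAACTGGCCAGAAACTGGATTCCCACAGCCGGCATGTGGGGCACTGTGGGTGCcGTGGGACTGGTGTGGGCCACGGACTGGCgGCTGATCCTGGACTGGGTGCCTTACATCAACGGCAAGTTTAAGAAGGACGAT
Cox7c: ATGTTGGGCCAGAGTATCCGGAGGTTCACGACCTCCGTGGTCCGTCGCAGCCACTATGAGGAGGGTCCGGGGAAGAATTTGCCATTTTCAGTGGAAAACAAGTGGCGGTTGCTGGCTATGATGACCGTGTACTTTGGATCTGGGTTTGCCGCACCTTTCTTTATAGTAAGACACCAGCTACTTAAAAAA
Ndufa1: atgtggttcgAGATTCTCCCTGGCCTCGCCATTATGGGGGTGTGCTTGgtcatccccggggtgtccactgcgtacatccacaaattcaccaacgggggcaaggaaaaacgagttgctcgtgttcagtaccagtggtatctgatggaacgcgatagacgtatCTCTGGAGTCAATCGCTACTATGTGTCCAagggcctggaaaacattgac
In *Uqcr11* 60.3% of the stretches were matched elsewhere, and 166 of its 168 bases lay in at least 1 of them. The share was 100% in *Cox7c* and 7.10% in *Ndufa1*. How reads with several matches were counted is not given in the sources used here. *Atp5g1* and *Ndufab1*, also at 100%, and *Uqcrb*, at 91.8%, had only 1 to 15 reads in each control library. The 12 genes with at least 50% matched had a median control level of 49.1 FPKM, against 128 FPKM in the other 80.

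The part of all RPFs taken by the 92 genes as a whole overlapped between the genotypes. RPM are reads per 1000000 counted reads. The genes received 12519 and 15967 RPM in control against 14055 and 12959 in *Eef1g*-cKO. Both *Eef1g*-cKO libraries lay between the controls. The means were 14243 ± 2438 (SD, n = 2) and 13507 ± 775 (SD, n = 2), an exact two-sided permutation test gave p = 1, and the smallest p that 2 against 2 libraries allow is 0.33.

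By complex, complexes I, II, IV and V also overlapped between genotypes, and the sum of complex III did not overlap, which rested on 1 gene, *Uqcrh*. Complex I genes received 3679 and 4792 RPM in control against 4511 and 4365 in *Eef1g*-cKO. Complex II genes received 880.0 and 949 in control against 916 and 841 in *Eef1g*-cKO. Complex III genes received 1141 and 1622 in control against 1041 and 1078 in *Eef1g*-cKO. The *Eef1g*-cKO libraries were close to the lower control here, so the gap was smaller than the difference between the controls. Without *Uqcrh*, the other 7 genes received 774 and 1107 in control against 822 and 865 in *Eef1g*-cKO, and the groups overlapped. Complex IV genes received 2314 and 3101 in control against 2358 and 2056 in *Eef1g*-cKO, and complex V genes 4504 and 5502 in control against 5230 and 4618 in *Eef1g*-cKO. In each complex control replicate 2 had the highest value.

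**Figure D1:**
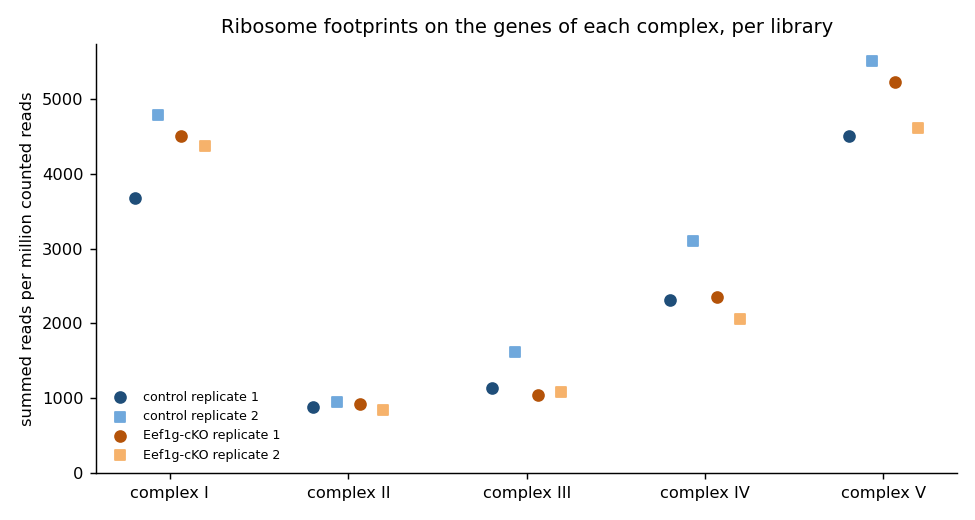
Summed reads on the genes of each complex, in RPM, for each of the 4 libraries (circles are replicate 1 and squares replicate 2 of control, blue, and *Eef1g*-cKO, orange). Complex III is the only complex in which both *Eef1g*-cKO libraries, at 1041 and 1078, lie below both controls, at 1141 and 1622, and without *Uqcrh* it overlaps too.

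Gene by gene, 13 of the 92 differed and 10 of these were lower in *Eef1g*-cKO. Genes were compared with limma on log2(FPKM + 1), FPKM being reads per kilobase of gene per 1000000 counted reads, and were called at a Benjamini-Hochberg adjusted p below 0.05 and a log2 fold change beyond 1 in size. All 92 genes passed the filter of a mean of at least 1 FPKM. The genes that rose were *Ndufb6*, *Ndufa1* and *Cox5b*, 3.26% of the 92 against 2.87% of all tested genes. The genes that fell were *Uqcr11*, *Cox7c*, *Ndufa11*, *Cox19*, *Cox6b1*, *Ndufs8*, *Cox8a*, *Ndufaf2*, *Ndufa4* and *Atp5o*, 10.9% against 4.97% of all tested genes. By unadjusted p 4 genes or 4.35% were increased against 7.32% of all tested genes, and 17 genes or 18.5% were decreased against 16.3%, a share near the background. Both *Eef1g*-cKO libraries lay above both controls for 25 genes, or 27.2% against 24.6% of all tested genes, and below them for 36, or 39.1% against 37.7%. The median log2 fold change was -0.17 in the 92 genes and -0.23 in all 10475, and 54 of the 92 values were below 0 against 6191 of the 10475.

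**Figure D2:**
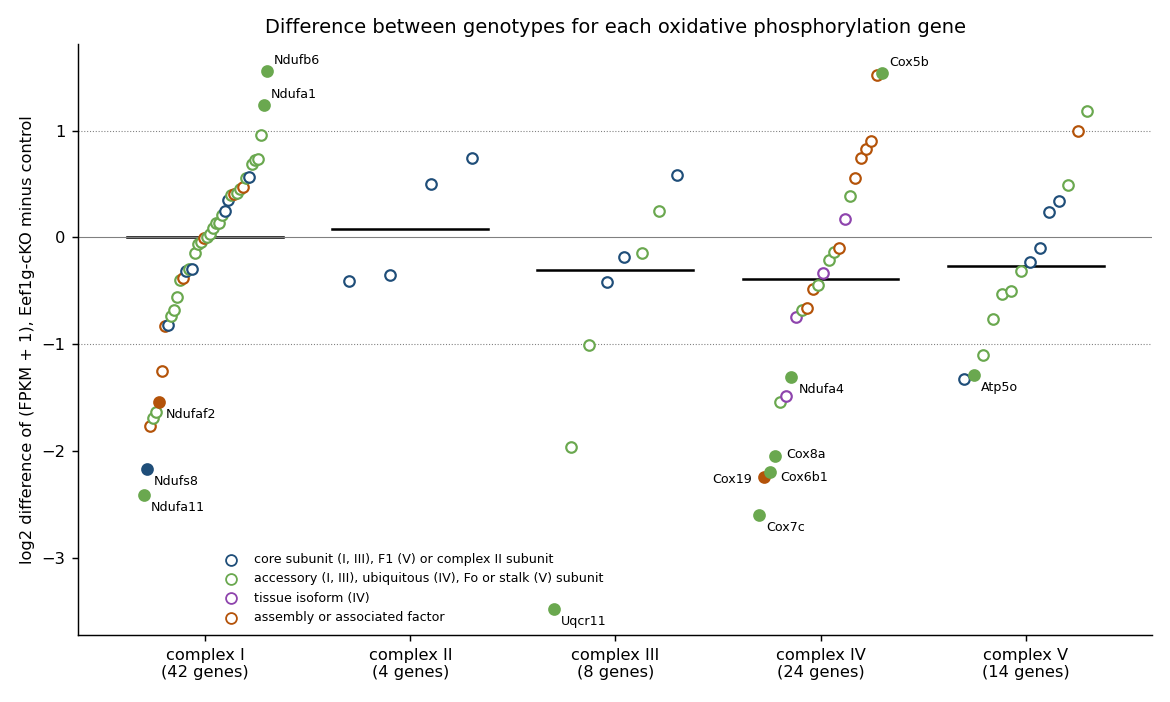
Log2 difference between genotypes for each of the 92 genes by complex, each point a gene, coloured by the kind of subunit. Filled points are the 13 genes past the adjusted threshold, dotted lines mark a log2 difference of 1 in size, and black bars are the medians, -0.00 for complex I, 0.08 for II, -0.30 for III, -0.39 for IV and -0.27 for V. Complex IV holds 6 of the 13 filled points.

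These calls rest on few reads in *Eef1g*-cKO, where the 10 genes that fell had 1 to 21 reads in a library, against 61 to 413 in control. Without control replicate 1, or without control replicate 2, none of the 92 genes, nor of all genes tested, passed the adjusted threshold, though each of the 13 kept its direction. By unadjusted p some of the 92 genes still passed in each of these fits, which hold 1 control library. The same 13 genes were called by edgeR's quasi-likelihood test on the recovered reads, with adjusted p between 4.11e-05 and 0.0175, and DESeq2 called 9 of them.

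Complex I, the NADH dehydrogenase, was balanced, with 21 of its 42 genes higher and 21 lower, and both its largest increases and one of the larger decreases were in subunits around its core. Both *Eef1g*-cKO libraries lay above both controls for 12 or 28.6% of the 42, against 24.6% of all tested genes. They lay below for 12 or 28.6%, against 37.7%. Among the 27 accessory subunits, 2 or 7.41% rose and 1 or 3.7% fell, against 2.87% and 4.97% of all tested genes. The median log2 fold change of this class was 0.09. *Ndufb6*, an accessory subunit of the membrane arm, was at 228 and 264 FPKM in control against 694 and 757 in *Eef1g*-cKO. Both *Eef1g*-cKO libraries were far above both controls, and the log2 fold change was 1.56 ± 0.21 (SE, limma adjusted p = 0.0289). Exons of *Ndufb6* overlap Smim27 on the opposite strand. *Ndufa1*, a small X-linked subunit needed to build the membrane arm, was at 236 and 280 FPKM in control against 652 and 567 in *Eef1g*-cKO. Its libraries did not overlap either, with a log2 fold change of 1.24 ± 0.21 (SE, limma adjusted p = 0.0365).

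*Ndufa11*, another subunit of the membrane arm, fell. It was at 36.8 and 49.4 FPKM in control against 5.04 and 10.1 in *Eef1g*-cKO, from 3 and 11 reads, with a log2 fold change of -2.41 ± 0.39 (SE, limma adjusted p = 0.0347). Its exons overlap *Vmac* on the opposite strand, and 30.3% of its 28-base stretches were matched elsewhere in the genome.

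Of the core subunits measured, which carry the flavin and iron-sulfur clusters, *Ndufs8* fell and no other passed the test. That was 1 of 7 or 14.3%, against 4.97% of all tested genes. *Ndufs8*, which holds iron-sulfur clusters on the path to ubiquinone, was at 112 and 131 FPKM in control against 26.1 and 26.3 in *Eef1g*-cKO. The *Eef1g*-cKO values came from 6 and 11 reads, against 286 and 186 in control. At so few reads their closeness says little about the spread between libraries. Both lay below both controls, and the log2 fold change was -2.17 ± 0.21 (SE, limma adjusted p = 0.0212). None of its 28-base stretches was found elsewhere. Its partners in the same arm had other values. *Ndufs7*, which carries the last cluster before ubiquinone, had a log2 fold change of 0.35 ± 0.30 and *Ndufs3* one of -0.82 ± 0.34 (SE, limma adjusted p = 0.465 and 0.172). *Ndufv1*, which binds NADH, had one of -0.29 ± 0.27, *Ndufv2* 0.57 ± 0.26 and *Ndufs1* 0.25 ± 0.26 (SE, limma adjusted p between 0.203 and 0.548).

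The 8 complex I assembly factors, which help build the enzyme and are not part of it, had a median log2 fold change of -0.61, with 4 or 50% below both controls against 37.7% of all tested genes, and 1 or 12.5% above against 24.6%. Another 8 complex I assembly factors, whose names the rule does not take, had a median of 0.38, with 3 below and 4 above. The first 8 received 371 and 383 RPM in control against 272 and 201 in *Eef1g*-cKO as a sum. That sum overlapped without *Ndufaf2*, at 205 and 217 against 209.9 and 149.5. *Ndufaf2*, which acts late in assembly in the place of a related subunit, fell. It was at 245 and 244 FPKM in control against 92.0 and 75.7 in *Eef1g*-cKO, with a log2 fold change of -1.54 ± 0.20 (SE, limma adjusted p = 0.0289). It had the most reads in *Eef1g*-cKO of the genes that fell, 14 and 21, and no 28-base stretch matched elsewhere. Its exons overlap B230220B15Rik on the opposite strand.

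Complex II, succinate dehydrogenase, had no subunit past the adjusted test. Of its 4 subunits 2 or 50% were above both controls, against 24.6% of all tested genes, and 2 or 50% below, against 37.7%. *Sdha*, the flavoprotein, was at 186 and 190.0 FPKM in control against 150.0 and 145 in *Eef1g*-cKO. *Sdhb*, the iron-sulfur subunit, was at 157 and 174 FPKM in control against 133 and 117 in *Eef1g*-cKO. Both catalytic subunits were lower in both *Eef1g*-cKO libraries, with log2 fold changes of -0.35 ± 0.19 and -0.41 ± 0.20 (SE, limma adjusted p = 0.259 and 0.226). *Sdhc*, which anchors the enzyme in the inner membrane, was at 115 and 143 FPKM in control against 239 and 195 in *Eef1g*-cKO. *Sdhd*, the other anchor, was at 33.6 and 39.4 FPKM in control against 48.7 and 55.3 in *Eef1g*-cKO. Both anchors were higher in both *Eef1g*-cKO libraries, with log2 fold changes of 0.75 ± 0.22 and 0.50 ± 0.23 (SE, limma adjusted p = 0.0903 and 0.205). The ratio of *Sdhc* to *Sdha* FPKM was 0.620 and 0.751 in control against 1.59 and 1.35 in *Eef1g*-cKO, a 2.15-fold difference of the geometric means. The ratio of *Sdhd* to *Sdhb* was 0.213 and 0.226 in control against 0.365 and 0.475 in *Eef1g*-cKO, a 1.90-fold difference. Since the anchors lay above and the catalytic subunits below both controls, these ratios could not overlap, so they are descriptions with no test.

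**Figure D3:**
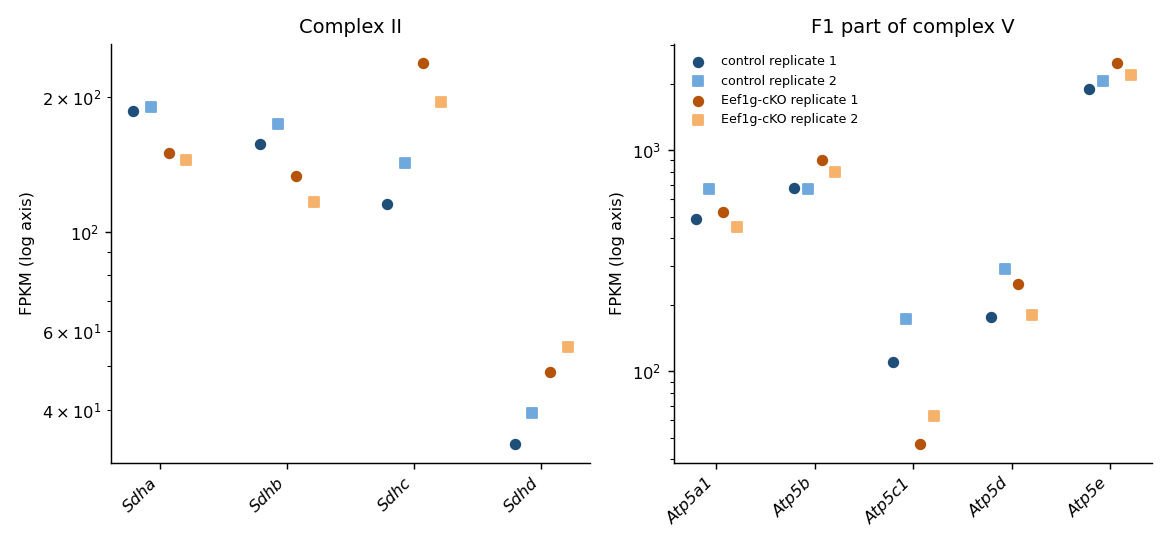
FPKM on a log axis in each of the 4 libraries (colours and symbols for control and *Eef1g*-cKO replicates as in the legend) for the subunits of complex II and of the F1 part of complex V. *Sdha* and *Sdhb* are lower and *Sdhc* and *Sdhd* higher in both *Eef1g*-cKO libraries, and *Atp5c1* is the single F1 subunit lower in both, at 47.2 and 62.7 against 111 and 172 FPKM.

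Complex III, which passes electrons from ubiquinol to cytochrome c, had 1 gene of 8 past the adjusted test, a small accessory subunit. It was lower, or 12.5% against 4.97% of all tested genes. *Uqcrh*, the hinge protein that helps cytochrome c bind, did not pass it but had the most reads of the accessory subunits. It was at 672 and 943 FPKM in control against 401 and 391 in *Eef1g*-cKO, with a log2 fold change of -1.01 ± 0.25 (SE, limma adjusted p = 0.0617). Both *Eef1g*-cKO libraries lay below both controls, and 37.9% of its stretches were matched elsewhere in the genome. *Uqcr11*, the smallest subunit of the complex, was at 117 and 210.4 FPKM in control against 10.2 and 16.9 in *Eef1g*-cKO. The *Eef1g*-cKO values came from 1 and 3 reads, against 126 and 127 in control. The log2 fold change was -3.48 ± 0.38 (SE, limma adjusted p = 0.0225), the largest in size of the 92 genes. The ratio of pooled RPM, *Eef1g*-cKO over control, was 0.0967, with an exact 95% interval of 0.0261 to 0.251 that covers counting error only. Most of its sequence is also found elsewhere, as the capitals above show. *Uqcrb*, a subunit near the ubiquinone site, was at 12.0 and 11.5 FPKM in control against 0 and 9.75 in *Eef1g*-cKO, from 0 and 2 reads (limma adjusted p = 0.269).

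The core subunits of complex III did not pass the test. *Uqcrc2*, a structural core protein, was at 85.1 and 109 FPKM in control against 135 and 155 in *Eef1g*-cKO. It was higher in both *Eef1g*-cKO libraries, with a log2 fold change of 0.58 ± 0.22 (SE, limma adjusted p = 0.149). *Uqcrc1*, its partner, and *Uqcrfs1*, the Rieske iron-sulfur protein, overlapped between genotypes, with log2 fold changes of -0.42 ± 0.29 and -0.18 ± 0.22 (SE, limma adjusted p = 0.369 and 0.613).

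Complex IV, cytochrome c oxidase, held 6 of the 13 genes called, 1 higher and 5 lower, or 20.8% of its 24 genes lower against 4.97% of all tested genes. The lower ones were mostly its ubiquitous subunits. Of these 11, 4 or 36.4% fell and 1 or 9.09% rose, against 4.97% and 2.87% of all tested genes. Both *Eef1g*-cKO libraries lay below both controls for 8 or 72.7%, against 37.7% of all tested genes. Summed over the 11 ubiquitous subunits there were 1806 and 2515 RPM in control against 1684 and 1463 in *Eef1g*-cKO, without overlap, also when any 1 of the 11 was left out. As for complex III, the gap was smaller than the difference between the controls.

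*Cox5b*, the zinc-binding subunit on the matrix side, rose. It was at 60.2 and 91.4 FPKM in control against 220 and 215 in *Eef1g*-cKO, with a log2 fold change of 1.54 ± 0.26 (SE, limma adjusted p = 0.0352). In its coding sequence 84.4% of the stretches were matched elsewhere in the genome. *Cox5a*, its neighbour in the complex, was at 192 and 197 FPKM in control against 187 and 166 in *Eef1g*-cKO (limma adjusted p = 0.653). *Cox4i1*, the most abundant subunit of complex IV here, was at 1244 and 1651 FPKM in control against 1187 and 930.4 in *Eef1g*-cKO. It was lower in both *Eef1g*-cKO libraries but did not pass the test, with a log2 fold change of -0.45 ± 0.28 (SE, limma adjusted p = 0.323). The ratio of *Cox5b* to *Cox4i1* FPKM was 0.0484 and 0.0554 in control against 0.185 and 0.232 in *Eef1g*-cKO, a 4.00-fold difference. Since *Cox5b* lay above and *Cox4i1* below both controls, this ratio could not overlap, so it is a description with no test.

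The subunits that fell are small proteins around the catalytic core. *Cox7c*, a single-pass membrane subunit, was at 91.6 and 98.1 FPKM in control against 9.95 and 21.8 in *Eef1g*-cKO, from 1 and 4 reads. The log2 fold change was -2.60 ± 0.38 (SE, limma adjusted p = 0.0307), and the ratio of pooled RPM was 0.188, with an exact 95% interval of 0.0601 to 0.447 for counting error only. *Cox6b1*, which faces the intermembrane space where the monomers meet, was at 148 and 286 FPKM in control against 44.2 and 43.7 in *Eef1g*-cKO, with a log2 fold change of -2.20 ± 0.34 (SE, limma adjusted p = 0.032). *Cox8a*, another small membrane subunit, was at 59.2 and 115 FPKM in control against 16.4 and 22.5 in *Eef1g*-cKO, with a log2 fold change of -2.05 ± 0.38 (SE, limma adjusted p = 0.0384). *Ndufa4* was at 182 and 235 FPKM in control against 81.7 and 84.7 in *Eef1g*-cKO, with a log2 fold change of -1.30 ± 0.22 (SE, limma adjusted p = 0.0352). For these 4 genes both *Eef1g*-cKO libraries were below both controls. *Cox6a1*, a regulatory subunit, was lower in both *Eef1g*-cKO libraries without passing the test, with a log2 fold change of -0.68 ± 0.26 (SE, limma adjusted p = 0.149).

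The 9 assembly factors of complex IV that the rule took had a median log2 fold change of 0.55, with 5 or 55.6% above both controls against 24.6% of all tested genes, and 3 or 33.3% below against 37.7%. Another 14, whose names it does not take, had a median of -0.54, with 4 above and 7 below. *Cox19*, which works with copper in the intermembrane space, fell. It was at 85.3 and 129 FPKM in control against 17.6 and 25.8 in *Eef1g*-cKO, from 3 and 8 reads, with a log2 fold change of -2.25 ± 0.31 (SE, limma adjusted p = 0.0296). None of its stretches was matched elsewhere. *Cox20*, a chaperone of the mitochondrially encoded subunit COX2, was at 4.50 and 3.22 FPKM in control against 9.97 and 16.4 in *Eef1g*-cKO, from 5, 2, 1 and 3 reads (limma adjusted p = 0.081).

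**Figure D4:**
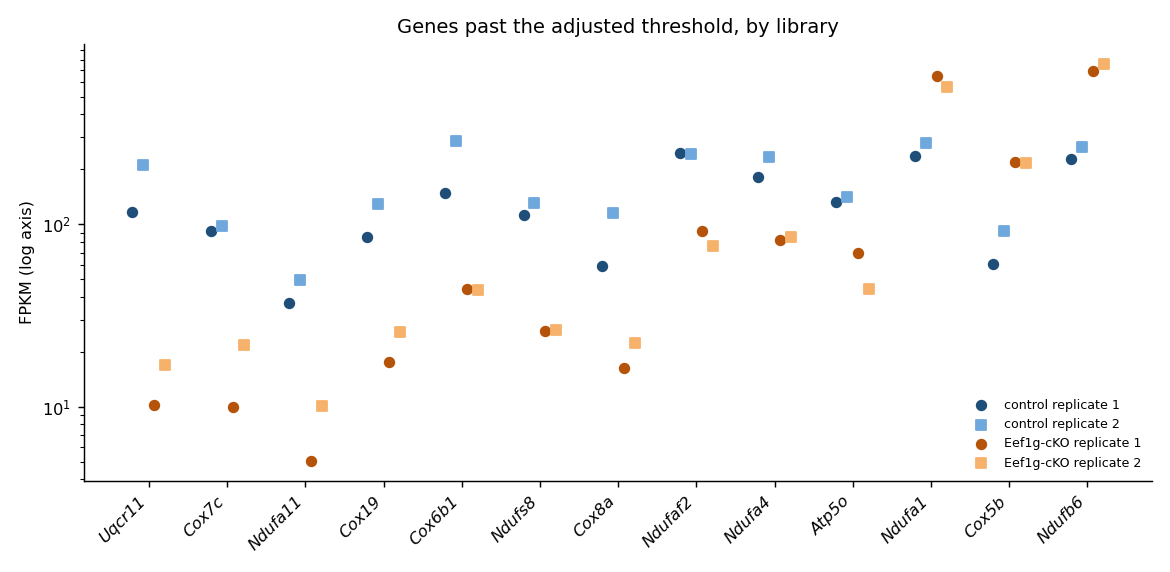
FPKM on a log axis in each of the 4 libraries for the 13 genes past the adjusted threshold, ordered from the largest decrease to the largest increase (symbols as in the legend). In all 13 genes the *Eef1g*-cKO libraries and the control libraries do not overlap.

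Complex IV has testis isoforms for several of these subunits, so each ubiquitous gene was set beside its testis form. The coding sequences of 3 such pairs are printed from GENCODE M21, 5′ to 3′, with the longest run of bases that both members of a pair share in capitals, to show how far a fragment could match both. RefSeq places *Cox6b1* at chr7:30616971-30626114 and *Cox6b2* at chr7:4751792-4753094, both on the minus strand of GRCm38.p6. *Cox7b* lies at chrX:106015700-106022450 on the plus strand and *Cox7b2* at chr5:71442823-71548205 on the minus strand. *Cox8a* lies at chr19:7215158-7217616 on the minus strand and *Cox8c* at chr12:102899306-102900534 on the plus strand. Of *Cox6b2* the first 300 of 312 bases are shown.
Cox6b1: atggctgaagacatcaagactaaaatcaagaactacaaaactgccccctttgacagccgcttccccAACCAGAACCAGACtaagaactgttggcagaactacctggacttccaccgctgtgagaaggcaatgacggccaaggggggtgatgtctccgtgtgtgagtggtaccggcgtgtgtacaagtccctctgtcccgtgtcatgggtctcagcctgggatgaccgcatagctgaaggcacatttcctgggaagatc
Cox6b2: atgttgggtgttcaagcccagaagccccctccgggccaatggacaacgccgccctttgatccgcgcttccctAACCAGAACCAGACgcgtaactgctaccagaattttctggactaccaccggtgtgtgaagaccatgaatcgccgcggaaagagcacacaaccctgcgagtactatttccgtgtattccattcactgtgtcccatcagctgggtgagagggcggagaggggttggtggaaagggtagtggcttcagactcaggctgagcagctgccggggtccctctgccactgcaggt
Cox7b: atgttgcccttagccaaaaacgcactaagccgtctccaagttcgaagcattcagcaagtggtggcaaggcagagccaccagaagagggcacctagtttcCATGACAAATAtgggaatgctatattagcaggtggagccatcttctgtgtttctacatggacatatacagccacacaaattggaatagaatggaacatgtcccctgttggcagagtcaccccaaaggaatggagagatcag
Cox7b2: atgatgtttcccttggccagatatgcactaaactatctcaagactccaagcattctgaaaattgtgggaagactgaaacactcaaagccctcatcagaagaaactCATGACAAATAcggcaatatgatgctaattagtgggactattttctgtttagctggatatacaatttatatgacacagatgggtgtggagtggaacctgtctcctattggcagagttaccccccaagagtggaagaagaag
Cox8a: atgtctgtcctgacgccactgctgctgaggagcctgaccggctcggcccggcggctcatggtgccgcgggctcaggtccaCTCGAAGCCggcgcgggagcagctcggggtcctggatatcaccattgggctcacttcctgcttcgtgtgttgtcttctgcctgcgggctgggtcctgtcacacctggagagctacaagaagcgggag
Cox8c: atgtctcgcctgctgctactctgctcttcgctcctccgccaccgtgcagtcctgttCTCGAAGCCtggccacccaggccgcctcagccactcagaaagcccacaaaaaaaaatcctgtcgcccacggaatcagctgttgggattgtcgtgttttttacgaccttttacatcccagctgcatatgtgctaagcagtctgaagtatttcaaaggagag
The longest shared run was 14 bases for *Cox6b1* and *Cox6b2*, 11 for *Cox7b* and *Cox7b2* and 9 for *Cox8a* and *Cox8c*, all shorter than the 28-base stretch used above. The 3 testis forms had no stretch matched elsewhere in the genome, while *Cox6b1* had 20.3%, *Cox7b* 39.4% and *Cox8a* 28.9%.

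In each pair the testis form made up more of the pair in both *Eef1g*-cKO libraries. *Cox6b1* and *Cox8a* were already called lower above, so their ratios in part restate those decreases. The testis forms *Cox6b2* and *Cox8c* also lay below both controls, and *Cox7b2* lay above them. *Cox6b2* was at 39.2 and 52.7 FPKM in control against 36.2 and 35.8 in *Eef1g*-cKO, a log2 fold change of -0.33 ± 0.25 (SE, limma adjusted p = 0.405). The ratio of *Cox6b2* to *Cox6b1* was 0.265 and 0.184 in control against 0.818 and 0.818 in *Eef1g*-cKO, 3.70-fold higher. Each of these 2 genes had 5 reads in *Eef1g*-cKO replicate 1 and 9 in replicate 2. The equal ratios thus come from equal small counts and do not measure how well the replicates agree. *Cox7b2* was at 144 and 134 FPKM in control against 164 and 149 in *Eef1g*-cKO, a log2 fold change of 0.17 ± 0.19 (SE, limma adjusted p = 0.585). *Cox7b*, from 78 and 20 reads in control against 1 and 4 in *Eef1g*-cKO, was at 31.4 and 14.4 and at 4.46 and 9.79 FPKM, a log2 fold change of -1.54 ± 0.53 (SE, limma adjusted p = 0.116). *Cox7b2* was thus the more abundant form of its pair in every library, and its ratio to *Cox7b* was 4.59 and 9.31 in control against 36.9 and 15.2 in *Eef1g*-cKO, where the 36.9 rests on 1 *Cox7b* read. *Cox8c*, from 31 and 11 reads in control against 1 and 3 in *Eef1g*-cKO, was at 26.3 and 16.7 and at 9.38 and 15.4 FPKM (limma adjusted p = 0.246). Its ratio to *Cox8a* was 0.444 and 0.145 in control against 0.572 and 0.687 in *Eef1g*-cKO, from 2 and 5 *Cox8a* reads. The groups did not overlap in any of the 3 ratios. For *Cox7b2* over *Cox7b* this followed from their own values, and for the other 2 an exact two-sided permutation gave p = 0.33, the smallest possible. Spermatogonial marker levels were lower and leptotene/zygotene marker levels higher in the same *Eef1g*-cKO libraries, and their part in these ratios was not tested.

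**Figure D5:**
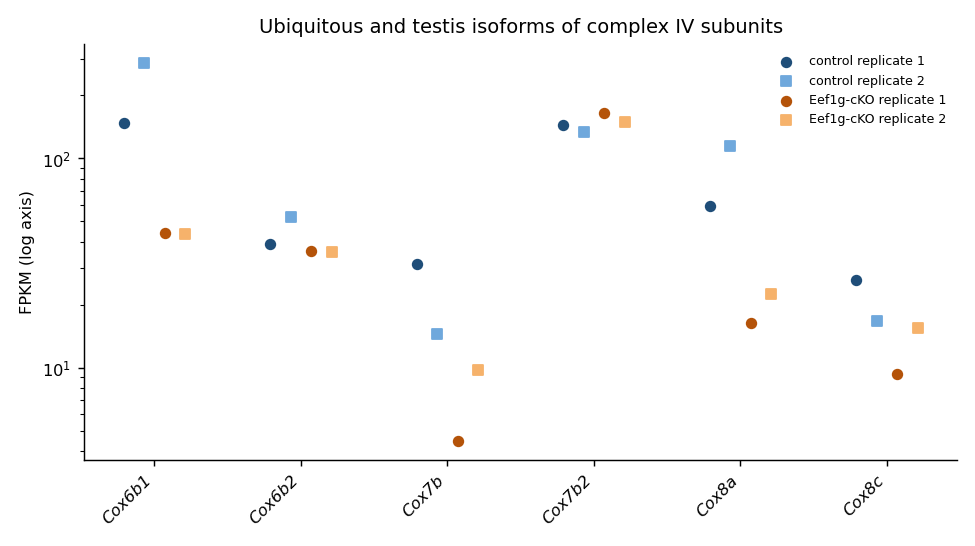
FPKM on a log axis in each of the 4 libraries for the ubiquitous genes *Cox6b1*, *Cox7b* and *Cox8a* and their testis forms *Cox6b2*, *Cox7b2* and *Cox8c* (symbols as in the legend). The ubiquitous forms lie lower in both *Eef1g*-cKO libraries, *Cox6b1* at 44.2 and 43.7 against 148 and 286 FPKM. The testis forms *Cox6b2* and *Cox8c* also lie lower in both, while *Cox7b2* stays between 134 and 164 FPKM in all 4 libraries.

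Other isoform families were less informative. *Cox7a1*, the muscle form, was listed with 7 and 3 reads in control against 0 and 1 in *Eef1g*-cKO, beside *Cox7a2* at 96.3 and 141 FPKM in control against 184 and 127 in *Eef1g*-cKO (limma adjusted p = 0.342 and 0.403). *Atp5g1* and *Atp5g3* encode the same mature ring protein of ATP synthase. *Atp5g3* was at 235 and 292 FPKM in control against 222 and 200 in *Eef1g*-cKO, a log2 fold change of -0.31 ± 0.21 (SE, limma adjusted p = 0.358). *Atp5g1*, whose stretches were all matched elsewhere, had 1, 8, 1 and 3 reads.

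Complex V, ATP synthase, had 1 gene of 14 past the adjusted test, and the subunits with the highest FPKM did not pass it. The 1 gene was lower, or 7.14% against 4.97% of all tested genes, a share near the background. Its catalytic F1 head is made of alpha and beta subunits around a central shaft. *Atp5b*, the beta subunit, was at 672 and 670.1 FPKM in control against 908 and 797 in *Eef1g*-cKO. It was higher in both *Eef1g*-cKO libraries, with a log2 fold change of 0.34 ± 0.22 (SE, limma adjusted p = 0.330). *Atp5a1*, the alpha subunit, was at 489 and 668 FPKM in control against 527 and 451 in *Eef1g*-cKO, so its groups overlapped (limma adjusted p = 0.560). *Atp5e*, the epsilon subunit at the foot of the shaft, had the highest FPKM of the 92 genes, at 1888 and 2052 in control against 2481 and 2179 in *Eef1g*-cKO (limma adjusted p = 0.582).

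*Atp5c1*, the gamma subunit that forms the shaft, stood apart from them. It was at 111 and 172 FPKM in control against 47.2 and 62.7 in *Eef1g*-cKO, with a log2 fold change of -1.33 ± 0.29 that just missed the adjusted threshold in limma (SE, adjusted p = 0.0514). It was called by edgeR on the reads (adjusted p = 0.0032) and by DESeq2 (adjusted p = 0.0123). The ratio of *Atp5b* to *Atp5c1* FPKM was 6.07 and 3.89 in control against 19.2 and 12.7 in *Eef1g*-cKO, a 3.22-fold difference. The ratio of *Atp5a1* to *Atp5c1* was 4.42 and 3.88 in control against 11.2 and 7.19 in *Eef1g*-cKO, a 2.17-fold difference. The first ratio could not overlap, given the values of its genes, and the second did not (exact two-sided permutation p = 0.33, the smallest possible). In *Atp5c1* 27.3% of the stretches were matched elsewhere in the genome, in *Atp5b* 6.54% and in *Atp5a1* none.

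Of the 8 subunits of the membrane part and stalk, 5 or 62.5% were below both controls in both *Eef1g*-cKO libraries, against 37.7% of all tested genes, and none above, against 24.6%, with a median log2 fold change of -0.51. *Atp5o*, which ties the head to the peripheral stalk, fell. It was at 133 and 141 FPKM in control against 69.4 and 44.5 in *Eef1g*-cKO, with a log2 fold change of -1.29 ± 0.27 (SE, limma adjusted p = 0.0476). This was the call closest to the threshold, and the exons of *Atp5o* overlap *Donson* on the same strand. In its coding sequence 44.1% of the stretches were matched elsewhere.

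The other genes of the pathway, cytochrome c, electron carriers and assembly factors whose names the rule does not take, had a median log2 fold change of -0.81. Of 42 tested, 1 or 2.38% rose and 3 or 7.14% fell, against 2.87% and 4.97% of all tested genes. Of the 42, 25 or 59.5% lay below both controls against 37.7% of all tested genes, and 11 or 26.2% above against 24.6%. The complex I assembly factors among them, with a median of 0.38, were the one class of 6 with a median above 0. *Atpif1*, the inhibitor of ATP synthase, was at 200 and 362 FPKM in control against 24.9 and 63.7 in *Eef1g*-cKO, with a log2 fold change of -2.72 ± 0.50 (SE, limma adjusted p = 0.0384). *Etfb*, a subunit of the flavoprotein that feeds electrons from fatty acid oxidation to the chain, was at 59.8 and 95.1 FPKM in control against 14.8 and 16.3 in *Eef1g*-cKO, with a log2 fold change of -2.21 ± 0.30 (SE, limma adjusted p = 0.0296). *Coa3*, an assembly factor of complex IV, was at 44.4 and 66.4 FPKM in control against 12.4 and 17.1 in *Eef1g*-cKO, with a log2 fold change of -1.83 ± 0.32 (SE, limma adjusted p = 0.0364). *Atpaf2*, an assembly factor of the F1 head, rose from 29.0 and 24.4 FPKM in control to 69.5 and 76.3 in *Eef1g*-cKO, with a log2 fold change of 1.42 ± 0.23 (SE, limma adjusted p = 0.0337). *Cyct*, the testis form of cytochrome c, was at 56.4 and 40.6 FPKM in control against 27.1 and 11.2 in *Eef1g*-cKO (limma adjusted p = 0.103).

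The proteins of the mitochondrial ribosome, which makes the mitochondrially encoded subunits, were counted for comparison. Of 74 such genes 2 or 2.70% rose and 4 or 5.41% fell, against 3.26% and 10.9% of the 92 genes and 2.87% and 4.97% of all genes tested, and the difference between the lists was not tested. Their median log2 fold change was -0.37, against -0.17 in the 92 genes and -0.23 in all genes tested. Of 64 tested genes for proteins of the cytosolic ribosome, 0 rose and 7 or 10.9% fell. That share lower equalled the 10.9% of the 92 genes, and the median log2 fold change was -0.67. For the 92 genes the median GC content of the coding sequence was 53.3%, against 52.9% in all tested genes with one. Spearman's rho between GC content and log2 fold change was -0.01 over the 92 genes and -0.29 over the 10122, as descriptions across genes that share libraries. The genes that fell had a median coding sequence of 267 bases, those that rose 384 and those not called 483.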

How the data were processed

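RPFs were measured by Ribo-seq in sorted leptotene/zygotene spermatocytes, 2 libraries per genotype. The submitters' processing notes name cutadapt, Bowtie and STAR, and mm10 and hg38, without their roles; the counter for Ribo-seq is not given in the sources used here. The authors deposited FPKM per gene and normalized counts, a signal of counts divided by a size factor. The latter are 100% whole multiples of a step in each library (within 1e-06), which gave back the reads. Columns holding the authors' comparison (log2 fold change, its error, test score and p-value), whose headers are those DESeq2 writes, were left unused. Depth was 223906 to 2479504 reads, so counting error was largest in *Eef1g*-cKO.

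limma 3.58.1 (R 4.3.3) compared the 10475 genes that reached 1 FPKM on average, on the log2(FPKM + 1) scale and with the prior variance trended on the level, at adjusted p below 0.05 and a log2 fold change beyond 1; a fold change on this scale understates that of low genes. Adjustment covered all genes tested. edgeR 4.0.16 and DESeq2 1.42.0 on the recovered reads, other pseudocounts, filters and scalings, thinning, a replicate block and leaving out each library were alternatives. The fits were tested on simulated data. Coding sequences were the longest complete ones of GENCODE M21 for all 92 genes, matched exactly, on both strands, against GRCm38.p6. Ratios and the sum over the 92 genes were compared over libraries by exact permutation. The sums of single complexes and classes were checked for overlap only, without a test. Sums that did not overlap were repeated without each of their genes, which was chosen after seeing the data.

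Genes named in the text are core subunits, isoform families, up to 12 genes past the adjusted threshold, and per complex the 2 largest increases and decreases with at least 5 FPKM and no overlap; *Ndufab1* and *Uqcrh* were named after their values were seen, and 1 item is not reported here. The members, gene lists and tests were chosen with earlier results of these data known. Markers and gene lists came from general knowledge. Reads shared between paralogs, pseudogenes or overlapping genes cannot be separated in the table.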

Additional observations from a re-analysis of the deposited data

How the results depend on the processing

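The 13 genes kept their direction in each of the 14 alternatives, and their calls did not. Against 3 increased and 10 decreased by adjusted p, a pseudocount of 0.1 FPKM gave 0 and 1, and a prior variance without a trend and libraries thinned to the shallowest gave 0 and 0. Over all tested genes the pseudocount gave 29 and 47 and the other 2 settings 0 and 0, against 301 and 521, so the loss was not particular to these genes. At those settings 4 and 16, 4 and 16, and 4 and 15 of the 92 genes still passed by unadjusted p, against 4 and 17. Over all tested genes 748 and 1501, 793 and 1811, and 708 and 1263 did, against 767 and 1705. Leaving out each library gave 0 to 4 increased and 0 to 17 decreased by adjusted p, 3 to 7 and 8 to 21 by unadjusted p, a median log2 fold change of -0.36 to -0.05, and a difference in summed RPM of -2460 to 988 against -736. Without control replicate 1 or control replicate 2 none was called, and without *Eef1g*-cKO replicate 2 17 were decreased. Counts by unadjusted p were 7 increased, and the median reversed to 0.048, after median centring of the libraries, by which the median over all genes went from -0.23 to -0.02 and their calls from 301 up and 521 down to 521 and 383. The calls of the 92 genes were then 4 and 9. Other settings left the counts within 1.5 times, with edgeR's 3 and 12 and DESeq2's 3 and 7. edgeR tested 83 of the 92 genes, and over all 8056 genes that it tested 705 were increased and 904 decreased. Over all genes DESeq2 called 502 increased and 451 decreased. Of 30 named genes not called, 5 passed in some alternative (*Atp5c1*, *Cox20*, *Cox7a1*, *Cox7b* and *Uqcrb*). The replicate numbers pair nothing in the labels, and the differences between replicates 1 and 2 correlated at -0.01 over genes between genotypes. With a replicate block 3 of the 92 genes were increased and 13 decreased, against 424 and 822 of all 10475 tested. Depth limits the lower values: at 223906 reads, 22 of 92 genes had at most 3 reads.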
